A study of Homo sapiens with 3 samples.

Results

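Hermansky-Pudlak syndrome joins oculocutaneous albinism with a bleeding tendency, and its genes encode subunits of protein complexes that carry cargo from endosomes to melanosomes, platelet dense granules and other lysosome-related organelles. The 10 genes described here are HPS1 and HPS4 of BLOC-3, HPS3, HPS5 and HPS6 of BLOC-2, DTNBP1, BLOC1S3 and BLOC1S6 of BLOC-1, and AP3B1 and AP3D1 of the AP-3 adaptor. They were taken by symbol from the 36601 genes of the count tables, all 10 were found, and all 10 passed the filter on low counts. The question was which of these subunits stood higher in melanocyte-like cells than in the other cells of the same cultures and which stood at a similar level in every class.

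The cultures were melanocytes induced from human pluripotent stem cells through embryoid bodies in medium with Wnt3a-conditioned medium, SCF, endothelin-3, bFGF, cholera toxin and, until the first passage, the phorbol ester TPA. The titles call the source induced pluripotent stem cells and the source field gives H9, a human embryonic stem cell line, and the samples carried no gene edit in their labels. Cells were sampled for droplet sequencing on days 23, 32 and 44 (D23, D32 and D44), with 1 library each. A shared induction gave D32 and D44, which were also sequenced as a batch, whereas D23 had its own induction and its own batch.

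After the study's limits on genes, UMIs and mitochondrial share, 3796, 6023 and 5811 cells were kept in D23, D32 and D44, with median depths of 12574, 36375 and 42940 UMIs per cell. Cells were put into classes by the summed UMIs of marker lists that hold none of the 10 genes. Melanocyte-like cells numbered 2446, 5497 and 5754, mesenchymal-like cells 371, 275 and 21, and neural-like cells 816, 122 and 4 in D23, D32 and D44, so the neural-like cells of D44 were too few for a class sum and were left out. The 8 melanocyte markers (PMEL, MLANA, DCT, TYRP1, TYR, MITF, SOX10 and TRPM1) summed to between 4231 and 12123 UMIs per 1000000 UMIs of the class (CPM) in melanocyte-like cells, against 80.1 to 225 CPM in mesenchymal-like cells and 134 to 213 CPM in the neural-like cells used. In the classes used, epithelial markers reached at most 9.97 CPM, endothelial markers 9.88 CPM and blood markers 1.35 CPM, MYOD1 and MYOG were at 0 in each class sum, and pluripotency markers lay between 15.2 and 81.8 CPM. Muscle markers reached 63.5 CPM in the neural-like cells of D32, and the Schwann cell list lay between 25.9 and 270 CPM. Between 2 and 15 cell barcodes were shared by a pair of libraries among the kept cells.

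The complexes act in sequence as far as is known. AP-3 and BLOC-1 sort cargo on endosomes, tyrosinase mainly by AP-3 and TYRP1 mainly by BLOC-1, BLOC-2 helps endosomal tubules reach the melanosome, and BLOC-3, a dimer of HPS1 and HPS4, activates the small GTPases RAB32 and RAB38. UMIs were counted per gene without regard to gene length, so every level below is compared within a gene and not between genes.

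The upstream sequences of HPS4, HPS5 and HPS3 are shown because the former pair stood higher in melanocyte-like cells than in both other classes and, within that class, higher in the cells richest in pigment markers, whereas HPS3, a partner of HPS5 in BLOC-2, did neither. Each run is the 250 bases before the RefSeq gene start on GRCh38.p14, read 5′ to 3′ on the gene's strand, and capitals mark TGACGTCA, the cAMP response element, or CACGTG, an E-box of the kind bound by MITF, the lineage factor of melanocytes. HPS4 (chr22:26483864-26484113, minus strand), HPS5 (chr11:18322141-18322390, minus strand) and HPS3 (chr3:149129388-149129637, plus strand) read as follows.
HPS4: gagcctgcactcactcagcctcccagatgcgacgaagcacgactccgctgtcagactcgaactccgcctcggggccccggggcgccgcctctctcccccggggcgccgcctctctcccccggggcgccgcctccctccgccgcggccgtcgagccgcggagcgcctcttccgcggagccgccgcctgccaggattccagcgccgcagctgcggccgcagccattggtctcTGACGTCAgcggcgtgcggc
HPS5: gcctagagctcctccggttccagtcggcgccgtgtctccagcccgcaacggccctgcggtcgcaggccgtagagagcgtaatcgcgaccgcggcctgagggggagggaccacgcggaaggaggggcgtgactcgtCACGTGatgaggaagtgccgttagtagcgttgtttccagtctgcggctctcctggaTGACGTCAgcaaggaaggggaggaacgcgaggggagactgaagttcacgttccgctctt
HPS3: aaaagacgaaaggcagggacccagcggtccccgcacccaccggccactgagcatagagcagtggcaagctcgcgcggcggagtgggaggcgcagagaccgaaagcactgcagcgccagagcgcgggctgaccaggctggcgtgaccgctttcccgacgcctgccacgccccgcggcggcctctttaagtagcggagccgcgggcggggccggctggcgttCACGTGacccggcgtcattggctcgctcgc

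In these letters, HPS4 held TGACGTCA at 20 bases before the start, HPS5 held TGACGTCA at 59 and CACGTG at 115 bases before it, and HPS3 held CACGTG at 30 bases before it, each position being the motif's leftmost base. Of the 7 genes with an entry in the RefSeq promoter table, BLOC1S3 held CACGTG at 87 and CATGTG at 160 bases before its start, and HPS6, DTNBP1 and BLOC1S6 held none of the 3 motifs. HPS1, AP3B1 and AP3D1 had no entry. Searched on both strands over the same 250 bases of 27305 promoters, CACGTG stood in 6.49%, CATGTG in 9.54% and TGACGTCA in 1.77%. Distances are from the RefSeq start. The gene spans given below are from GENCODE, where those of HPS4 and HPS5 reach 26483931 and 18322198. By these spans TGACGTCA of HPS4 lies within the gene and that of HPS5 at its edge. These matches are a description of the letters only.

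The BLOC-3 pair HPS1 and HPS4 and the BLOC-2 subunit HPS5 stood higher in melanocyte-like than in mesenchymal-like cells. HPS4 led with a 3.73-fold difference, followed by HPS1 with 2.75-fold and HPS5 with 1.99-fold. The other 7 genes did not pass the test at an adjusted p under 0.05. These 3 of 10 stand beside 9.23% of the 15255 genes tested that were called higher in melanocyte-like cells, and none of the 10 was called lower beside 10.6% of all genes. The median log2 fold change was 0.41 over the 10 genes and 0.09 over all genes.

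HPS1 lies on chromosome 10 (98410939-98446963, minus strand, GRCh38) and measured 65.1, 86.6 and 98.2 CPM in melanocyte-like cells at D23, D32 and D44. It measured 24.7, 26.9 and 49.7 CPM in the mesenchymal-like cells of the same libraries and 42.2 and 53.0 CPM in the neural-like cells of D23 and D32. All 3 melanocyte-like values lay above all 5 others. The share of all genes that separate in this way was not counted, here or for the genes and groups below. The log2 fold change was 1.46 ± 0.16 (SE, n = 3 libraries) against mesenchymal-like cells (edgeR quasi-likelihood test, adjusted p = 0.00189) and 0.76 ± 0.18 against neural-like cells (edgeR, adjusted p = 0.0288).

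HPS4, the partner of HPS1 in BLOC-3, lies on chromosome 22 (26443107-26483931, minus strand) and carries TGACGTCA in the run shown above. It measured 40.6, 52.0 and 52.2 CPM in melanocyte-like cells at D23, D32 and D44, 16.6, 10.4 and 13.8 CPM in mesenchymal-like cells, and 20.4 and 21.4 CPM in the neural-like cells of D23 and D32. The lowest melanocyte-like value was thus above the highest value of either other class. The log2 fold change was 1.90 ± 0.25 (SE) against mesenchymal-like cells (edgeR, adjusted p = 0.00369) and 1.33 ± 0.28 against neural-like cells (edgeR, adjusted p = 0.0189).

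HPS5, a BLOC-2 subunit on chromosome 11 (18278668-18322198, minus strand), measured 32.5, 32.1 and 27.8 CPM in melanocyte-like cells. Mesenchymal-like cells gave 17.8, 14.2 and 18.0 CPM and neural-like cells 17.9 and 18.1 CPM, and these 5 values did not overlap the melanocyte-like ones. The log2 fold change was 1.00 ± 0.17 (SE) against mesenchymal-like cells (edgeR, adjusted p = 0.0095) and 0.97 ± 0.19 against neural-like cells (edgeR, adjusted p = 0.0163).

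Within single libraries the folds of these 3 genes had the same direction, with 95% intervals that cover counting error only. Against mesenchymal-like cells, HPS4 stood 2.45-fold higher (1.95 to 3.12) in D23, 4.99-fold (4.11 to 6.12) in D32 and 3.78-fold (2.05 to 7.88) in D44. HPS1 stood 2.63-fold (2.19 to 3.20), 3.22-fold (2.85 to 3.64) and 1.97-fold (1.43 to 2.82) higher in the same libraries. For HPS5 the folds were 1.82 (1.46 to 2.30) and 2.27 (1.92 to 2.70) in D23 and D32, and 1.55 (0.90 to 2.90) in D44, where only 21 mesenchymal-like cells were present.

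**Figure D1:**
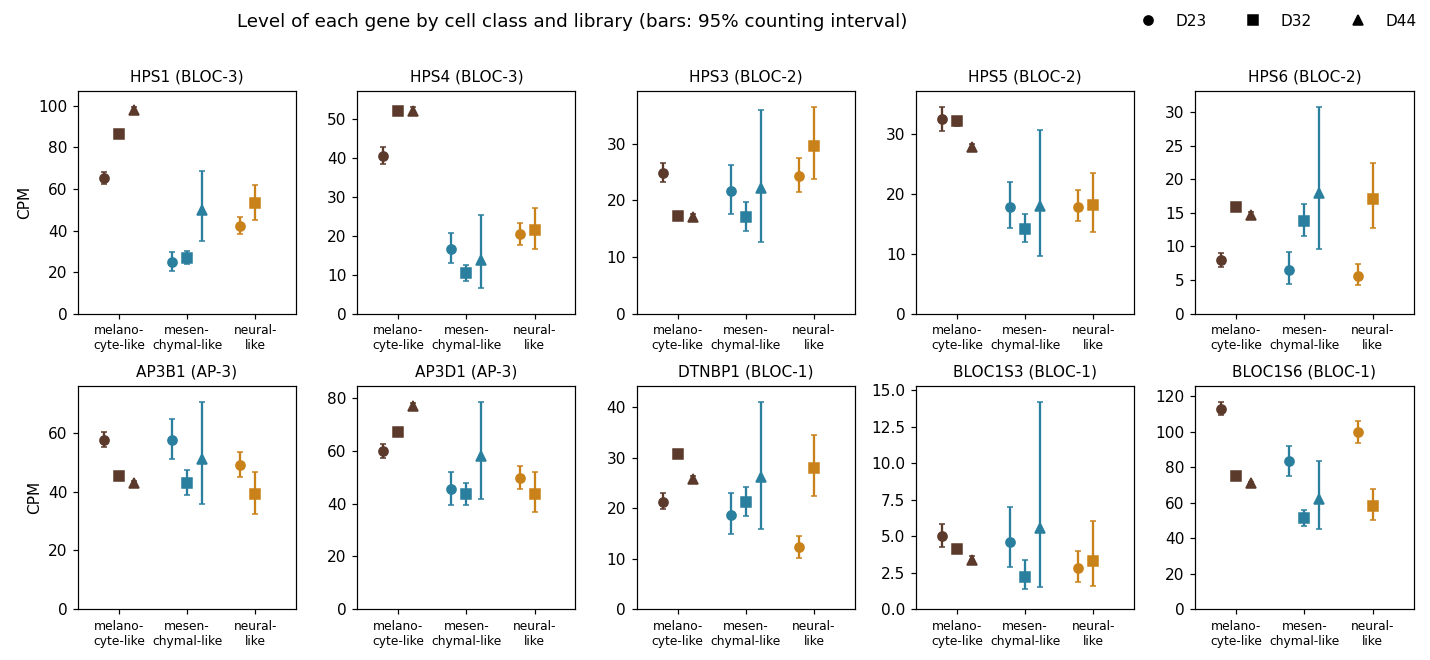
CPM (y axis, from 0) of each of the 10 genes in melanocyte-like, mesenchymal-like and neural-like cells (x axis), 1 point per library and class, with 95% counting intervals. For HPS1, HPS4, HPS5 and AP3D1 the 3 melanocyte-like points lie above the 5 others, whereas HPS3 and AP3B1 overlap across classes.

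Against neural-like cells the same 3 genes were called higher, beside 8.54% of all genes called higher and 12.0% called lower in that comparison. The median log2 fold change was 0.59 over the 10 genes and 0.09 over all genes. With 2 neural-like sums this comparison rested on fewer libraries: without D23 only HPS4 remained called, without D32 none of the 10, and with cells thinned to 5000 UMIs only HPS1. Scaling by total UMIs in place of TMM moved the median of all genes by -0.17 on the log2 scale and HPS1 to a log2 fold change of 0.59 (edgeR, adjusted p = 0.075). Against mesenchymal-like cells, HPS5 was not called without D32 (log2 fold change 0.81, edgeR, adjusted p = 0.0965).

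Exons shared with neighbouring genes limit how exactly HPS1, HPS4, HPS3, AP3B1 and BLOC1S6 can be read. Whether the counting used the strand is not given in the sources used here. In GENCODE v44, HPS1 shares 2696 exon bases on the same strand with a protein-coding gene that has no row in the count tables, so its level was not analysed here, and 551 with PYROXD2, also on the same strand. HPS4 shares 1588 exon bases with ASPHD2 and 55 with SRRD, both on the other strand. PYROXD2 measured between 0.673 and 5.58 CPM over the 8 class sums and was lower in melanocyte-like than in mesenchymal-like cells, with a log2 fold change of -2.32 ± 0.43 (edgeR, adjusted p = 0.0119). ASPHD2 lay between 1.66 and 10.5 CPM and was also lower there, at -1.65 ± 0.33 (edgeR, adjusted p = 0.0157). SRRD lay between 24.9 and 44.6 CPM with a log2 fold change in the direction of HPS4, 0.50 ± 0.15 (edgeR, adjusted p = 0.056). HPS3 shares 1420 exon bases on the other strand with CP, which encodes ceruloplasmin. AP3B1 shares 491 exon bases with a transcribed processed pseudogene and BLOC1S6 shares 175 with a protein-coding gene, both on the same strand. Neither neighbour has a row in the count tables, so their levels were not analysed here. The part of shared reads in these results was not tested.

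The other BLOC-2 subunits did not follow HPS5. HPS3 (chromosome 3, 149129638-149173732, plus strand) measured 24.8, 17.2 and 17.1 CPM in melanocyte-like, 21.6, 17.0 and 22.1 CPM in mesenchymal-like and 24.3 and 29.6 CPM in neural-like cells. Its fold was 1.04 against mesenchymal-like cells, with a 95% interval of 0.762 to 1.42 that leaves out a 1.5-fold difference either way. Against neural-like cells its fold was 0.833, and the interval of 0.587 to 1.18 does not leave it out. In D32 alone HPS3 was 0.58-fold the neural-like level in melanocyte-like cells (counting interval 0.47 to 0.72), whereas in D23 the ratio was 1.02 (0.89 to 1.18). CP, which overlaps HPS3, measured 8.89 CPM in the neural-like cells of D32 against 0.045 CPM in the melanocyte-like cells of that library and 1.15 CPM in the neural-like cells of D23, and its part in the ratio was not tested. HPS6 (chromosome 10, 102065349-102068036, plus strand), whose annotated gene is 1 exon, gave folds of 1.13 (0.804 to 1.59) and 1.22 (0.829 to 1.80) against the respective classes. The intervals of HPS3 and HPS5 did not overlap in either comparison, while those of HPS6 and HPS5 did, and the differences between genes were not tested.

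Of the AP-3 subunits, AP3B1, the beta chain mutated in a form of the syndrome with neutropenia, stood closest to equal. AP3B1 (chromosome 5, 78000522-78294762, minus strand) measured 57.8, 45.3 and 43.0 CPM in melanocyte-like cells, 57.6, 43.0 and 51.1 CPM in mesenchymal-like cells and 49.2 and 39.2 CPM in neural-like cells. Its fold against mesenchymal-like cells was 1.02, with an interval of 0.814 to 1.29, which leaves out a 1.5-fold difference either way. Against neural-like cells the interval of 0.977 to 1.67 does not.

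AP3D1, the delta chain of the same adaptor (chromosome 19, 2100988-2164468, minus strand), measured 59.9, 67.1 and 77.1 CPM in melanocyte-like cells, 45.5, 43.5 and 58.0 CPM in mesenchymal-like cells and 49.7 and 43.8 CPM in neural-like cells. The melanocyte-like values lay above the 5 others, by 1.48-fold (1.12 to 1.95, edgeR, adjusted p = 0.0577) and 1.51-fold (1.09 to 2.08, edgeR, adjusted p = 0.0763). Neither passed the threshold, and DESeq2 called AP3D1 in both comparisons (adjusted p = 0.0173 and 0.037).

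The BLOC-1 subunits were not called in either comparison. BLOC1S6, known as pallidin (chromosome 15, 45587214-45615945, plus strand), measured 113, 75.0 and 70.8 CPM in melanocyte-like cells, 83.2, 51.3 and 62.2 CPM in mesenchymal-like cells and 99.8 and 58.3 CPM in neural-like cells. Within each library the melanocyte-like value was the highest, but the groups overlapped across libraries, and the fold of 1.40 (1.09 to 1.79) against mesenchymal-like cells did not pass the test (edgeR, adjusted p = 0.0652). DTNBP1, which encodes dysbindin (chromosome 6, 15522807-15663058, minus strand), measured 21.3, 30.8 and 25.8 CPM in melanocyte-like cells, 18.7, 21.2 and 26.2 CPM in mesenchymal-like cells and 12.2 and 28.0 CPM in neural-like cells. Its folds of 1.26 (0.898 to 1.77) and 1.5 (1.02 to 2.21) did not pass the test (edgeR, adjusted p = 0.313 and 0.128). BLOC1S3 (chromosome 19, 45178784-45216933, plus strand) was the most sparsely counted, with 22 UMIs in the mesenchymal-like cells of each of D23 and D32 and 4 in those of D44. It lay between 2.23 and 5.53 CPM in every class, and its interval of 0.641 to 2.30 against mesenchymal-like cells spans a change of 1.5-fold either way, so a difference of that size was not detectable at this depth.

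**Figure D2:**
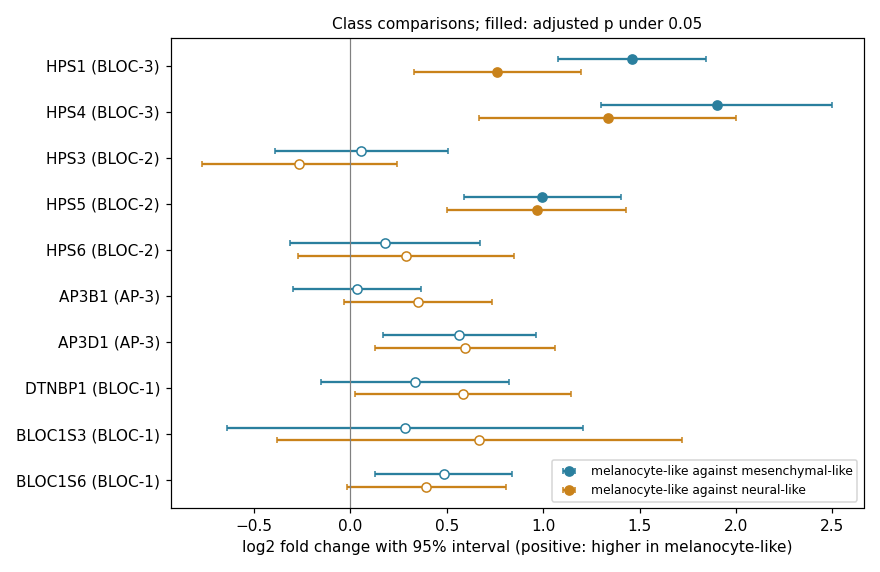
Log2 fold change with its 95% interval (x axis) for each gene (y axis), melanocyte-like against mesenchymal-like cells in blue and against neural-like cells in orange, with filled points for an adjusted p under 0.05. HPS1, HPS4 and HPS5 carry filled points in both comparisons, and the intervals of HPS3, HPS6 and AP3B1 include 0.

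No difference between mesenchymal-like and neural-like cells passed the test in the 10 genes. edgeR called 0 of 10 beside 1.26% of all genes, 1 of 10 at an unadjusted p under 0.05 beside 16.3%, and DESeq2 called 1 of 10 beside 7.39%, which was HPS1 in each case. HPS1 was lower in mesenchymal-like cells by a log2 fold change of -0.70 ± 0.18 (edgeR, adjusted p = 0.132).

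Free RNA in the droplets can give any class UMIs of melanocyte genes. The gate let mesenchymal-like and neural-like cells in only with a melanocyte sum under 10 per 10000 UMIs. That limit capped the marker shares given here, so they cannot measure free RNA. The melanocyte markers summed in mesenchymal-like cells to 1.89%, 1.04% and 1.86% of their melanocyte-like level in D23, D32 and D44, and in neural-like cells to 3.17% and 2.07% in D23 and D32. HPS4 in the mesenchymal-like cells of D32, at 10.4 against 52.0 CPM, had the lowest share of its melanocyte-like level among HPS1, HPS4 and HPS5. The part of free RNA in these levels was not tested. With 10% of the UMIs of each class sum subtracted in proportion to the profile of its library, the 3 genes were still called against mesenchymal-like cells, and HPS1 and HPS5 against neural-like cells. HPS4 lost that call with a larger log2 fold change, 1.55 ± 0.40 (edgeR, adjusted p = 0.0513).

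Within melanocyte-like cells, HPS4 and HPS5 also rose with pigment marker content. The 25% of cells with the highest melanocyte marker sum (pigment-rich) were set against the 25% with the lowest (pigment-poor) in each library, at median depths that differed little (12375 against 13036 UMIs in D23, 35425 against 36363 in D32 and 42360 against 43427 in D44). The sum used to form these groups holds none of the 10 genes. The 2 genes called higher stand beside 10.5% of the 15654 genes tested, and none was called lower beside 11.0%. The median log2 fold change was 0.09 over the 10 genes and 0.0029 over all genes.

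HPS4 measured 49.7 CPM in the pigment-rich and 29.7 CPM in the pigment-poor cells of D23, 61.1 and 40.9 CPM in D32, and 61.0 and 41.1 CPM in D44. The 3 pigment-rich groups all lay above the 3 pigment-poor ones, with a log2 fold change of 0.65 ± 0.06 (SE, n = 3 libraries, edgeR, adjusted p = 0.00169). HPS5 measured 36.8 against 30.4 CPM in D23, 36.8 against 28.3 CPM in D32 and 31.4 against 24.7 CPM in D44. It was higher in the pigment-rich cells of each library, with a log2 fold change of 0.38 ± 0.06 (edgeR, adjusted p = 0.0105), and was not called without D32 (0.34, edgeR, adjusted p = 0.106).

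HPS1 did not pass with its BLOC-3 partner. It measured 69.1 against 63.2, 86.5 against 87.6 and 105 against 92.1 CPM in the pigment-rich and pigment-poor cells of D23, D32 and D44, a log2 fold change of 0.13 with a 95% interval of -0.0044 to 0.27 (edgeR, adjusted p = 0.146). That interval lies below the interval of HPS4, 0.51 to 0.80. BLOC1S6 was lower in the pigment-rich cells of all 3 libraries, at 105 against 119, 67.7 against 82.4 and 67.0 against 74.3 CPM, without passing the test (log2 fold change -0.17 ± 0.05, edgeR, adjusted p = 0.063), and scaling by total UMIs called it lower (-0.20 ± 0.05, edgeR, adjusted p = 0.0383). AP3B1 was also lower in each, with ratios of 0.93, 0.86 and 0.91 (edgeR, adjusted p = 0.177). For HPS3, HPS6, AP3D1 and BLOC1S3 the libraries differed in direction, and DTNBP1 had ratios of 1.14, 1.04 and 1.07 (edgeR, adjusted p = 0.169).

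**Figure D3:**
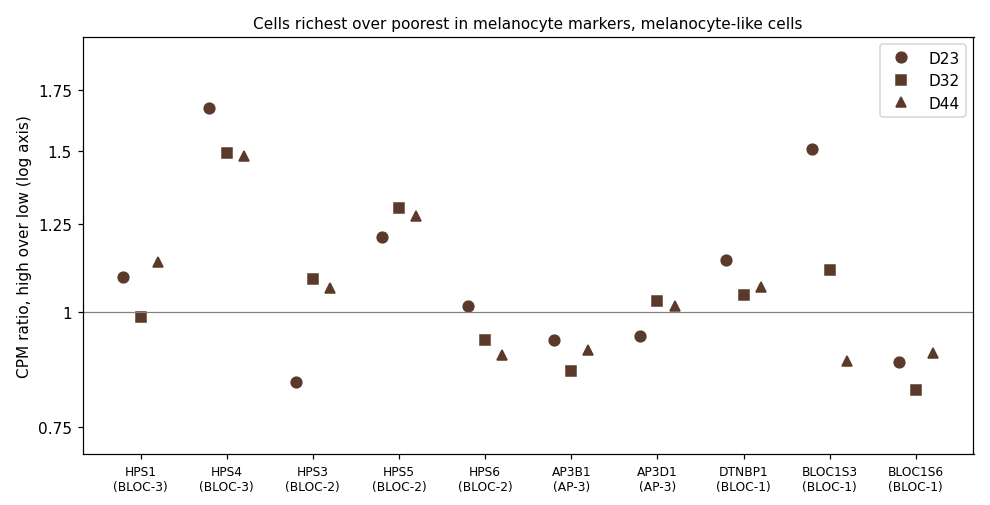
Ratio of CPM in pigment-rich over pigment-poor melanocyte-like cells (y axis, log axis) for each gene (x axis), 1 point per library. HPS4 lies at 1.67, 1.49 and 1.48 in D23, D32 and D44 and HPS5 at 1.21, 1.30 and 1.27, while BLOC1S6 lies below 1 in all 3 libraries.

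Cycling melanocyte-like cells were those with at least 3 UMIs of 6 proliferation genes after each cell was thinned to 5000 UMIs. They differed by small amounts from cells with none of these UMIs after the same thinning. The levels compared were from all UMIs of the cells. Of the 10 genes, 5 were called beside 47.3% of the 16307 genes tested, a share near the background. HPS3 was higher by 0.15 ± 0.06 on the log2 scale, and HPS1, HPS4, HPS5 and HPS6 had log2 fold changes between -0.17 and -0.13. Cycling cells held more UMIs (median 44147 against 32569 in D32), and without D44 none of the 10 was called, without D32 2, by DESeq2 1 (HPS4) and with cells thinned to 5000 UMIs 2.

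Between days there was 1 library each, so levels are described without a test, and for D23 the day cannot be told apart from its induction and sequencing batch. In melanocyte-like cells, 2 of the 10 genes differed by more than 1.5-fold between D23 and D32, beside 15.6% of genes higher and 29.0% lower in D32. HPS6 went from 7.95 to 15.9 CPM, a ratio of 2.00 (counting interval 1.76 to 2.28), and BLOC1S6 went from 113 to 75.0 CPM, a ratio of 0.666 (0.642 to 0.690). With TMM-scaled CPM the split was 4 higher (HPS1, HPS4, HPS6 and DTNBP1) and 0 lower, beside 25.1% and 19.8% of all genes on that scale, and BLOC1S6 had a ratio of 0.791. At a lower limit, a ratio 25% above 1 or its inverse, 4 genes stood higher in D32 beside 25.7% of all genes and 3 lower beside 42.1%.

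The HPS6 and BLOC1S6 differences were present in the other classes as well. HPS6 had a D32 over D23 ratio of 2.12 (1.43 to 3.24) in mesenchymal-like and 3.02 (2.04 to 4.45) in neural-like cells, and BLOC1S6 one of 0.617 (0.540 to 0.705) and 0.584 (0.495 to 0.686). DTNBP1 had ratios of 1.45 (1.34 to 1.57) in melanocyte-like, 1.13 (0.881 to 1.47) in mesenchymal-like and 2.29 (1.72 to 3.04) in neural-like cells. Depth moved with this step, since the median depth of D23 was 12574 UMIs per cell against 36375 in D32, and with every cell thinned to 5000 UMIs the melanocyte-like ratios were 2.02 (1.61 to 2.55) for HPS6 and 0.714 (0.666 to 0.766) for BLOC1S6, so that HPS6 alone passed 1.5-fold.

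From D32 to D44, within the same induction and batch, 0 of the 10 genes passed 1.5-fold in melanocyte-like cells, beside 4.83% of genes past 1.5-fold higher and 10.3% past 1.5-fold lower. At the limit of 25% the count was also 0, beside 11.3% of genes higher and 19.8% lower. The ratios ran from 0.824 (0.750 to 0.905) for BLOC1S3 to 1.15 (1.12 to 1.17) for AP3D1. HPS1 stood at 1.13 (1.11 to 1.16) and HPS4 at 1.00 (0.980 to 1.03), while the summed melanocyte markers stood at 10314 CPM in D32 and 12123 CPM in D44.

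**Figure D4:**
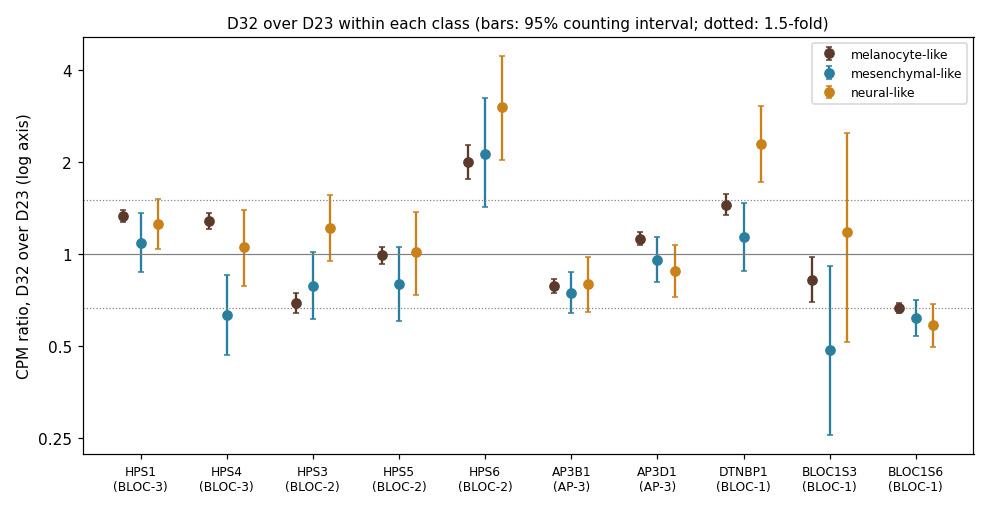
Ratio of CPM in D32 over D23 (y axis, log axis) for each gene (x axis) within melanocyte-like, mesenchymal-like and neural-like cells, with 95% counting intervals and dotted lines at 1.5-fold. HPS6 lies above and BLOC1S6 below the dotted lines in all 3 classes before TMM scaling, and HPS4 lies above 1 in melanocyte-like and below 1 in mesenchymal-like cells.

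Other genes of the same route were taken from lists of subunits, partners, cargoes, other coats and related disease genes. Their counts below stand beside 9.23% of all genes called higher against mesenchymal-like cells and 8.54% against neural-like cells. The shares of all genes called lower were 10.6% and 12.0%. Of 9 other BLOC-1 and AP-3 subunits tested, 1 was called higher in melanocyte-like than in mesenchymal-like cells and none was called lower. That gene was AP3M2, a mu chain of AP-3 (log2 fold change 0.74 ± 0.19, edgeR, adjusted p = 0.0394), which was not called without any 1 of the 3 libraries or against neural-like cells (0.38, edgeR, adjusted p = 0.259). The median of the list was 0.08, beside 0.09 over all genes.

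Of 13 Rab proteins, SNAREs and partners, 3 were called higher against mesenchymal-like cells and 3 against neural-like cells, with none lower. RAB38, a GTPase activated by BLOC-3, measured 280, 732 and 716 CPM in melanocyte-like cells at D23, D32 and D44 and 7.34, 13.3 and 16.6 CPM in mesenchymal-like cells (log2 fold change 5.59 ± 0.21, edgeR, adjusted p = 0.000144), and it was also called against neural-like cells (5.43 ± 0.24, edgeR, adjusted p = 0.000264). RAB32, the close relative of RAB38, was called against mesenchymal-like cells (1.82 ± 0.26, edgeR, adjusted p = 0.00491) and not against neural-like cells (0.59 ± 0.30, edgeR, adjusted p = 0.211). STX3, a SNARE on the route to melanosomes, was called in both (1.66 ± 0.24 and 2.56 ± 0.29, edgeR, adjusted p = 0.00467 and 0.00214). ANKRD27, which encodes the RAB32 and RAB38 effector VARP, was called against neural-like cells (1.17 ± 0.31, edgeR, adjusted p = 0.0404) and lost the call under 6 of 7 other settings tried. In pigment-rich cells RAB38 and RAB32 were higher by 1.12 ± 0.11 and 0.73 ± 0.09 (edgeR, adjusted p = 0.00208 and 0.00349).

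Of the 8 cargoes, 7 were called higher against mesenchymal-like and 6 against neural-like cells, but TYR and TYRP1 are markers of the gate and their place was fixed by it. Outside the gate, SLC24A5, a melanosomal ion exchanger, stood at 58.8, 180 and 189 CPM in melanocyte-like and at 1.26, 2.02 and 6.91 CPM in mesenchymal-like cells (log2 fold change 5.88 ± 0.47, edgeR, adjusted p = 0.00066). SLC45A2, a melanosomal transporter, gave 4.87 ± 0.82 (edgeR, adjusted p = 0.00879). OCA2, an anion channel that BLOC-1 delivers, gave 4.36 ± 0.95 (edgeR, adjusted p = 0.0215) with a loss of the call without D44. Against neural-like cells OCA2 was not called (2.24 ± 0.98, edgeR, adjusted p = 0.157). In D23 and D32 it measured 1.04 and 18.9 CPM in melanocyte-like cells and 0.962 and 1.32 CPM in neural-like cells. In the mesenchymal-like cells of D23, D32 and D44, SLC45A2 measured 1.26, 0.202 and 0 CPM and OCA2 0.629, 0.506 and 1.38 CPM. The size of these folds thus rests on few UMIs. The copper pump ATP7A, another BLOC-1 cargo, and the tetraspanin CD63, an AP-3 cargo, had smaller log2 fold changes of 1.80 ± 0.21 and 0.89 ± 0.15 (edgeR, adjusted p = 0.00223 and 0.00822).

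Among 15 subunits of the AP-1, AP-2 and related coats, 1 was higher and 1 lower in each comparison. AP1S2, a sigma chain of AP-1, measured 2169, 1493 and 1377 CPM in melanocyte-like cells and 302, 299 and 225 CPM in mesenchymal-like cells (log2 fold change 2.68 ± 0.16, edgeR, adjusted p = 0.000263). AP2M1, the mu chain of the plasma membrane adaptor AP-2, was lower by -0.63 ± 0.15 (edgeR, adjusted p = 0.0272), a call lost under 3 of 7 other settings. The medians of the list were 0.03 and 0.19 against mesenchymal-like and neural-like cells.

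Of 10 HOPS and CORVET tethering genes, VPS18 (0.99 ± 0.24, edgeR, adjusted p = 0.0325) and VPS41 (0.70 ± 0.15, edgeR, adjusted p = 0.02) were called against mesenchymal-like cells. TGFBRAP1 (1.41 ± 0.26, edgeR, adjusted p = 0.0121) and VPS11 (1.13 ± 0.32, edgeR, adjusted p = 0.0494) were called against neural-like cells, and each of these 4 calls was lost when D32 was left out. Over 7 other settings the call was lost in 5 for VPS18, 3 for VPS41, 6 for VPS11 and 1 for TGFBRAP1. VPS18 was also higher in pigment-rich cells (0.47 ± 0.07, edgeR, adjusted p = 0.00606). Of 6 other disease genes of lysosome-related organelles tested, the same 3 were called in both comparisons. They were RAB27A and MYO5A of Griscelli syndrome, which tether melanosomes to actin, and LYST of Chediak-Higashi syndrome, with log2 fold changes against mesenchymal-like cells of 2.35 ± 0.31, 1.73 ± 0.20 and 2.30 ± 0.33 (edgeR, adjusted p = 0.00381, 0.00219 and 0.00498). LYST was lower in pigment-rich than in pigment-poor cells (-0.54 ± 0.10, edgeR, adjusted p = 0.016, not called without D32), and RAB27A was higher (1.66 ± 0.11, edgeR, adjusted p = 0.00125).

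**Figure D5:**
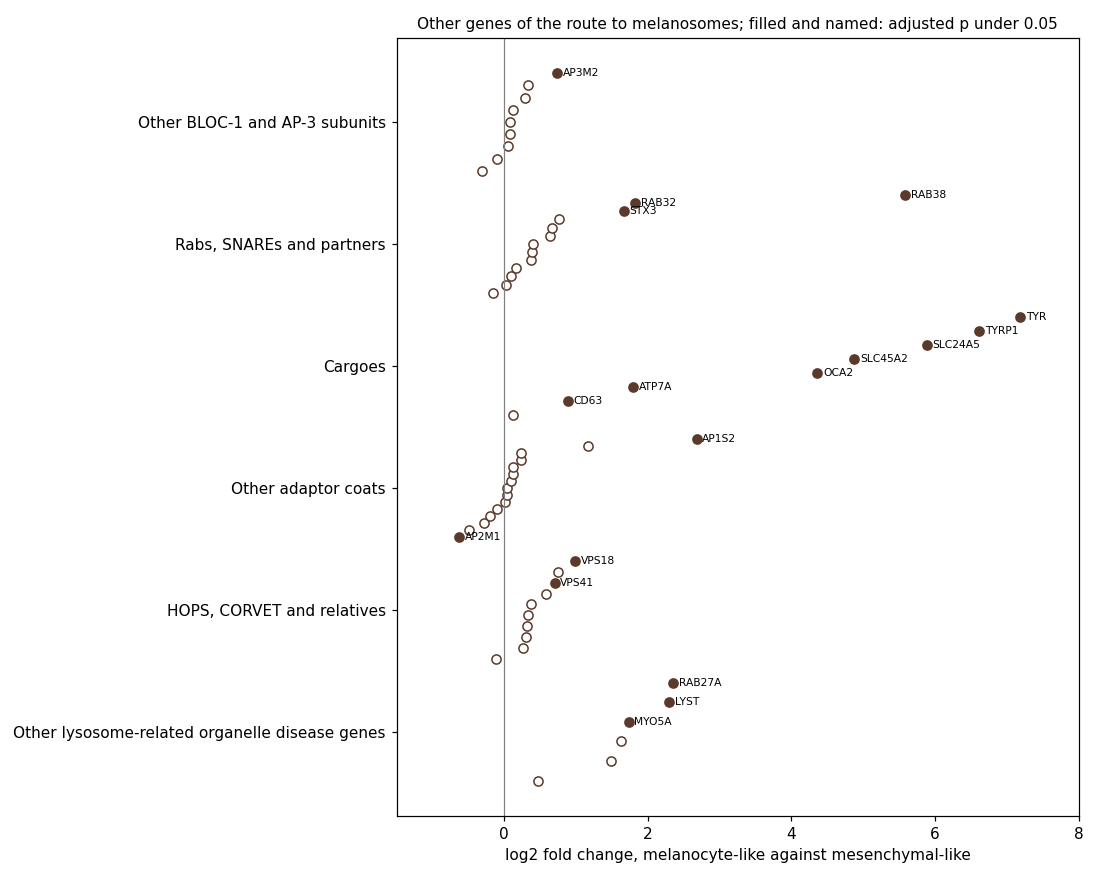
Log2 fold change, melanocyte-like against mesenchymal-like cells (x axis), of the genes tested in each list of the route to melanosomes (y axis), with filled and named points for an adjusted p under 0.05. RAB38 and the cargoes SLC24A5, SLC45A2 and OCA2 lie beyond 4, while the other BLOC-1 and AP-3 subunits lie near 0 apart from AP3M2 at 0.74, and TYR and TYRP1 are gate markers.

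The genes whose levels followed each called gene most closely were found by Pearson's r of log2(CPM + 1) over the 8 class sums, among 8606 genes with a mean of at least 10 CPM. The sums share libraries and classes, so r is a description without a p. HPS1 was followed most closely by INTS1 (0.995), PLAAT3 (0.993) and HS1BP3 (0.988), HPS4 by ZFYVE26 (0.990), PIK3R2 (0.989) and RGS20 (0.985), and HPS5 by ABCC2 (0.990), UBL3 (0.984) and SETDB2 (0.983). None of these genes is a gate marker. PLAAT3 measured 39.5, 95.9 and 108 CPM in melanocyte-like cells at D23, D32 and D44 and between 3.64 and 26.0 CPM in the other sums, and ABCC2 measured 66.6, 40.4 and 40.9 CPM against 0.202 to 2.76 CPM.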

How the data were processed

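The data are droplet RNA libraries of D23, D32 and D44, 1 each. Per the paper's methods the authors aligned reads with Cell Ranger 6.1.2 to GRCh38, and the deposited values are raw UMI counts per gene and barcode, with no normalization. The annotation release and the use of strand are not given in the sources used here. Deposited totals were 53298735, 268339312 and 280879346 UMIs.

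Cells were kept by the study's limits (over 1000 and under 7000 genes in D23, over 3000 and under 9000 in D32 and D44, at most 10% mitochondrial UMIs, over 500 UMIs and under 50000 or 100000). Markers were summed per 10000 UMIs. Melanocyte-like cells had a melanocyte sum of at least 10 with mesenchymal and neural sums under 5, and the other classes a melanocyte sum under 10 and their own sum of at least 5, with the larger of the mesenchymal and neural sums naming the class. The neural-like cells of D23 thus had a median mesenchymal sum of 8.20 beside a neural sum of 75.8. Cells past the melanocyte limit and another were mixed and left out. Cells are not replicates, so UMIs were summed per library and class (at least 10 cells) and tested over all genes with edgeR 4.0.16 in R 4.3.3 (TMM, filterByExpr, quasi-likelihood, library as a block, Benjamini-Hochberg). Libraries are separate cultures for D23 against the others only, so p-values measure the spread between these libraries. Same-library sums pair by construction. Intervals are at 95%, exact and for counting error only where no test is named. Data were also simulated with the same dispersion for all genes (0.0697) and the same starting profile for all sums. The shares recovered are thus not the power for any single gene. For melanocyte-like against mesenchymal-like sums (13521 genes), 22% of genes changed by 1 on the log2 scale and 79% of those changed by 2 were recovered. The shares were 9% and 77% for melanocyte-like against neural-like sums (13549 genes). They were 3% and 60% for mesenchymal-like against neural-like sums (13569 genes). Doublets called by Scrublet scores (132, 300 and 321 cells) were kept in the main analysis. Alternatives were DESeq2 1.42.0, total UMI scaling, no filter, no block, each library left out, thinning to 5000 UMIs, other gate limits, no doublets, subtraction of 10% free RNA and Louvain clusters (Scanpy 1.11.5). Positions and overlaps are from GENCODE v44, and promoters from RefSeq (GRCh38.p14). Named partner genes were those called against either class, at most 3 each way per list by size and each of any count of 5 or fewer. The 10 genes, the lists and the motifs were chosen with earlier results of these data known.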

Additional observations from a re-analysis of the deposited data

Results flagged for a closer look

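HPS4 moved in opposite directions between D23 and D32 in melanocyte-like and mesenchymal-like cells. Its D32 over D23 ratio was 1.28 (counting interval 1.21 to 1.36) in melanocyte-like and 0.630 (0.465 to 0.855) in mesenchymal-like cells, while in neural-like cells it was 1.05 (0.782 to 1.39). There is 1 library per day, so the difference between the classes was not tested, and day, induction and batch cannot be told apart.

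The mixed cells, which passed the gate for melanocyte markers together with another list and entered no comparison, carried all 3 called genes. HPS1 measured 53.1, 62.3 and 70.8 CPM in the mixed cells of D23, D32 and D44, HPS4 31.3, 30.6 and 25.5 CPM, and HPS5 21.8, 25.5 and 8.49 CPM. The mixed cells numbered 145, 124 and 6, and Scrublet scores called 61, 71 and 0 of them doublets. In D32 their median depth was 64589 UMIs against 36528 in melanocyte-like cells.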

How the results depend on the processing

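DESeq2 called 5 of the 10 genes against mesenchymal-like cells (AP3D1 and BLOC1S6 added), 4 against neural-like cells, 1 between those classes and 1 in cycling cells. With cells thinned to 5000 UMIs, 1 was called against neural-like cells and 2 in cycling cells. Without the library as a block, 0 were called between pigment-rich and pigment-poor cells and 0 in cycling cells, 2 against neural-like cells and 3 against mesenchymal-like cells. Scaling by total UMIs called 3 for pigment (BLOC1S6 added, lower). Leaving out 1 library gave 2 to 3 genes against mesenchymal-like cells, 0 to 3 against neural-like cells, 1 to 2 for pigment and 0 to 4 for cycling. Shares of all genes called under these settings were not counted, apart from DESeq2 between mesenchymal-like and neural-like cells (7.39%, against 1.26% by edgeR). The other counts above therefore stand without a background. Between D23 and D32, 4 genes passed 1.5-fold with TMM-scaled CPM, 1 after thinning, 1 with gate limits halved and 7 passed a ratio 25% above 1 or its inverse. Some log2 fold changes that were not called changed sign. These were, against mesenchymal-like cells, HPS3 (-0.0013 by DESeq2, -0.0063 by total UMIs, -0.11 to 0.0997 without 1 library), AP3B1 (-0.028, -0.044 and -0.072 to 0.027) and BLOC1S3 (-0.16 to 0.48 without 1 library), and, against neural-like cells, HPS6 (-0.017 thinned, -0.021 to 0.42 without 1 library) and AP3B1 (-0.028 thinned). For pigment they were HPS3 (-0.0027 thinned, -0.029 to 0.15 without 1 library), HPS6 (0.194 thinned) and AP3D1 (-0.0016 by total UMIs, -0.0011 to 0.074 without 1 library). The cause was not tested. Of the gene values recomputed, 362 kept their direction and side of the threshold, 42 lost a call, 7 gained one and 16 changed sign. Louvain clusters at the planned resolution of 0.4 separated mesenchymal-like and neural-like cells in D23 alone and could not be fitted. At a resolution of 2, chosen after seeing the data, 3 genes were called against mesenchymal-like cells, on fewer sums than in the main fit. Mesenchymal-like sums were then present in D23 and D32 only, and a neural-like sum in D23 only. The 21 mesenchymal-like cells of D44 and the 122 neural-like cells of D32 limit what could be detected.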
